A study of Mus musculus with 11 samples.

Results

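The BCL2 family of apoptosis regulators was followed through male germ cell development in the adult mouse testis. The members are 9 genes of the 20265 autosomal, X and Y genes in the deposited count table: the survival members Bcl2, Bcl2l1, Bcl2l2 and Mcl1, the effectors Bax and Bak1, and the BH3-only members Bid, Bad and Bbc3. They were picked by symbol. The study sorted live, GFP-positive cells of Dazl-GFP reporter mice, 1 per well, and counted the 3' ends of polyadenylated RNA with unique molecular identifiers (UMIs, random tags that mark single molecules) by SORT-Seq. All 3 mice carried the reporter and none was treated, so the groups compared are developmental stages within each mouse, and n = 3 throughout unless stated. CEL-Seq1 was used for mouse 1 alone (8 libraries, 96 wells in each), so that its protocol and the animal cannot be told apart. CEL-Seq2 was used for mouse 2 (384 wells, 1 library) and mouse 3 (2 such libraries, of which 1 came from a gate and the other, like those of the other mice, from index sorting). Age beyond adult, strain background and housing batch are not given in the sources used here, and the reporter gate limits the cells to those with Dazl-GFP signal.

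BCL2 family proteins decide whether the outer mitochondrial membrane is opened. Bax and Bak form the pores that release cytochrome c, the survival proteins (Bcl-2, Bcl-xL from Bcl2l1, Bcl-w from Bcl2l2, and Mcl-1) hold them in check, and the BH3-only proteins Bid, Bad and Puma (from Bbc3) either bind the survival proteins or activate the effectors. In the testis the family is known from mouse mutants: loss of Bax causes accumulation of premeiotic germ cells with spermatogenic arrest, and loss of Bcl2l2 leads to male sterility.

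Of 1920 wells, 1448 held at least 1000 UMIs, and 1247 of these fell into 14 stages ordered from spermatogonia to pachytene spermatocytes. Stage 1 was named undifferentiated spermatogonia-like from its markers, stages 2 to 4 differentiating spermatogonia-like, 5 and 6 preleptotene-like, 7 to 9 leptotene and zygotene-like, and 11 to 14 pachytene-like. Stage 10, led by Gnas and Hemt1, stayed unnamed. The names are rebuilt from marker lists. UMIs were summed per mouse and stage, which gave 41 sums of 13 to 59 wells and 94169 to 4150478 UMIs (median 591722), mouse 2 having no stage 11. The early period is stages 1 to 4, the middle period 5 to 9 and the late period 10 to 14. Depth moved with stage: the median well had 22610 UMIs in the early period, 8093 in the middle and 45119 in the late. Dazl and the germ cell helicase gene Ddx4 were present in 41 of 41 sums. A list of 8 Sertoli cell markers reached at most 360 CPM in an early sum and 968 in a middle sum (stage 6). In a late sum it reached at most 229. Only 1 of the 8, Amh, was at 0 in the early and middle periods, and the others were detected. The part of Sertoli cell RNA in the results was not tested. The middle period was also fitted without the 11 wells that a second clustering put in a Sertoli-led cluster, 8 of them in stage 6.

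Levels are UMIs of a gene per 1000000 UMIs of a sum (CPM), averaged over the stages of a period within each mouse and then given as mean ± SD over mice. Since a molecule gives 1 tag whatever its length, they were not divided by gene length, and the members are compared with each other as shares of tags. Differences were tested with edgeR's quasi-likelihood test with the mouse as a block, and p-values are Benjamini-Hochberg adjusted over 11597 genes. The SE of a log2 difference was not estimated directly. It was computed back from the test, as the size of the difference over the square root of its F value. Intervals of log2 differences extend 1.96 times that SE to each side. These SEs and intervals are approximate. Of the 9 members, 7 passed the filter on low counts. Bak1 (274 UMIs in 164 wells) and Bcl2 (58 UMIs in 49 wells) did not, and their tests come from a fit without the filter. A passing member had to be seen in enough sums, so the counts of members below are a description.

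From early to late, 2 of the 7 tested members were higher (Bcl2l1 and Bad) and 4 lower (Bcl2l2, Bax, Bid and Bbc3), while Mcl1 did not pass the test. Over all tested genes, 35.6% were called higher and 48.2% lower. The median log2 fold change was -0.86 over the 7 members and -0.28 over all genes. Over all 14 stages together, 7 of 7 members passed, against a background of 95.5%.

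**Figure D1:**
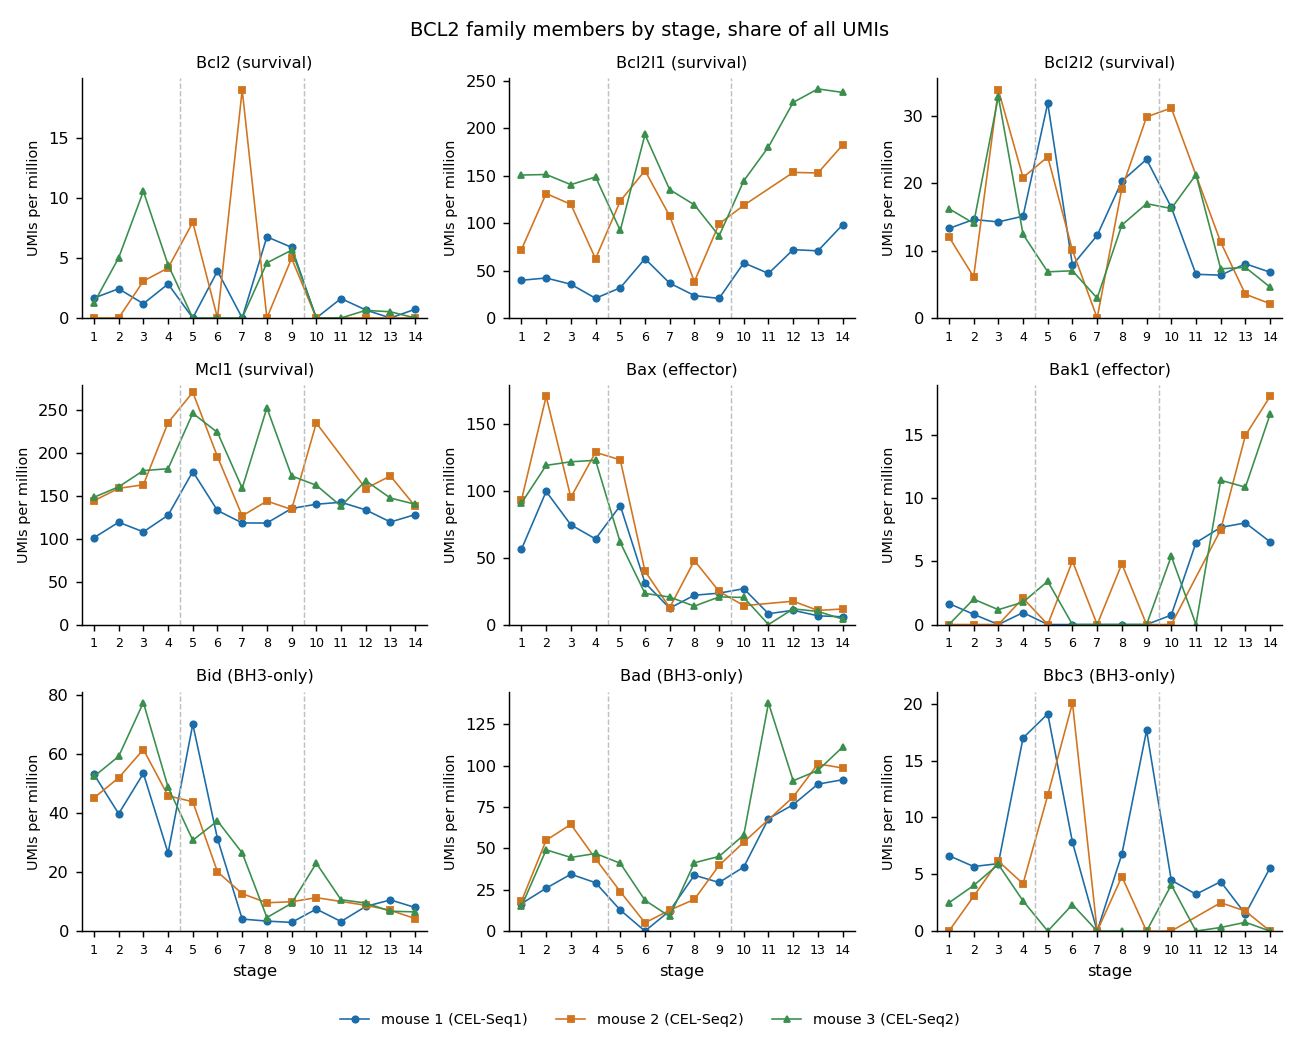
CPM of each member (vertical axes, separate scales from 0) against stage 1 to 14 for each mouse. Dashed lines part the early, middle and late periods, and the line of mouse 2 bridges its missing stage 11. Bax and Bid are lower at stage 7 than at stage 5 in all mice, Bad is lowest at stages 6 and 7 and highest in the late period, and Bcl2l1 is lowest in mouse 1 throughout.

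Among the survival members, Mcl1, whose short-lived protein sequesters Bak, held the steadiest level. Its early level was 114, 175 and 167 CPM in mice 1, 2 and 3, its middle level 137, 174 and 211, and its late level 133, 176 and 151. The 3 ranges overlapped. The late minus early difference was 0.12 ± 0.08 (log2, SE; 95% interval -0.03 to 0.28; adjusted p = 0.144), and mean stage levels spanned only 131 (stage 1) to 232 (stage 5). It passed under 8 of 19 alternatives, such as when mouse 2 was left out (0.24, adjusted p = 0.0208), without the Sertoli-led wells (0.24, adjusted p = 0.00496) and without stage 11 (0.41, adjusted p = 9.34e-07), and its sign turned with DESeq2's size factors (-0.02).

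Bcl2l1, which encodes Bcl-xL, rose late. Mouse 1 went from 34.6 (early) and 35.1 (middle) to 69.3 CPM (late), mouse 2 from 96.5 and 105 to 152, and mouse 3 from 148 and 126 to 207. Each mouse was highest in its own late period, but the mice differed so much that the early and late ranges overlapped. Fitted within mice, late was above early by 0.72 ± 0.10 (log2; adjusted p = 3.03e-09) and above middle by 0.87 ± 0.11 (adjusted p = 3.82e-10), with middle against early at -0.16 ± 0.12 (adjusted p = 0.231). Without the replicate block the late minus early difference was 0.64 (adjusted p = 0.112). As a share of survival tags, Bcl2l1 went from 20.5% (128 of 624 UMIs, exact 95% interval 17.4 to 23.9) to 36.1% (870 of 2408, 34.2 to 38.1) in mouse 1, from 31.5% to 47.6% in mouse 2 and from 43.6% to 59.2% in mouse 3. The intervals cover counting error only. Mcl1 held most of the remainder: its share of survival tags went from 69.6% to 59.9% in mouse 1, from 61.6% to 50% in mouse 2 and from 49.5% to 38.9% in mouse 3.

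Bcl2l2, which encodes Bcl-w, was scarce, with 416 UMIs in 296 wells. Its early level was 14.3, 18.2 and 18.9 CPM in mice 1, 2 and 3, against 8.81, 12.0 and 11.4 in the late period, and these ranges did not overlap. Late was below early by 0.86 ± 0.23 on the log2 scale (95% interval 0.40 to 1.32; adjusted p = 0.000636). Within this span the stage means varied: stage 3 had 27.0 ± 11.03, stage 7 had 5.06 ± 6.39, stage 9 had 23.4 ± 6.4 and stage 14 had 4.49 ± 2.33. These rest on 51, 4, 23 and 49 UMIs over the mice. No step of Bcl2l2 between neighbouring stages was called (lowest adjusted p = 0.134, from stage 7 to 8). The late minus early call was lost without mouse 1 (-0.54, adjusted p = 0.139) and with read counts (-0.69, adjusted p = 0.102), and the sign turned when low-depth clusters were kept (0.79, adjusted p = 0.553). The gene shares its strand and span with Gm20521 (chr14:54883441-54898137), so tags of the pair may be split or shared.

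Bcl2, the founding survival gene, was near the limit of detection. It had 8, 3 and 20 UMIs in the early period of mice 1, 2 and 3, 7, 6 and 4 in the middle period, and 6, 0 and 4 in the late period. The late level of 0.28 ± 0.30 CPM lay below 3.05 ± 1.961 early and 3.92 ± 2.23 middle, and the ranges of late and early did not overlap. In the fit without the filter, late minus early was -2.51 ± 0.70 (log2; adjusted p = 0.000771). Stage 10 had 0 of 2433445 UMIs, which allows up to 1.23 CPM.

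Bax fell the most of the 7 tested members. This pore-forming effector started at 73.8, 122 and 114 CPM in mice 1, 2 and 3 in the early period, stood at 35.6, 49.8 and 28.0 in the middle and ended at 11.6, 13.5 and 9.19 in the late period. No 2 of these ranges overlapped, and 3 of 3 mice fell at each change. The log2 difference was -1.75 ± 0.15 from early to middle (adjusted p = 5.59e-16), -1.39 ± 0.22 from middle to late (adjusted p = 5.87e-08) and -3.14 ± 0.14 from early to late (8.82-fold; adjusted p = 3.46e-30). By stage it peaked at 130 ± 36.8 in stage 2, still stood at 91.4 ± 31.0 in stage 5, and was 31.6 ± 8.4 in stage 6 and 15.2 ± 4.7 in stage 7. Without mouse 1 the difference was -4.29 from early to late (adjusted p = 3.91e-58) and -2.42 from middle to late (adjusted p = 1.52e-05). Stage 11 was then left with 1 sum, that of mouse 3, which held 0 Bax UMIs, so those sizes depend on the prior count and are no bound. Without stage 11 the differences were -2.74 and -1.05 (adjusted p = 3.12e-29 and 2.06e-06). Without the Sertoli-led wells the early to middle difference was -1.70. Bax overlaps Gm45808 on the same strand, and whether tags were split or shared was not tested.

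Bak1, the second effector, showed the opposite course at a far lower level. Over stages 1 to 10 no sum exceeded 5.41 CPM. The late period had 5.90, 10.1 and 8.86 CPM in mice 1, 2 and 3, against 0.85, 0.52 and 1.24 early and 0, 1.962 and 0.68 middle. Late lay above both other periods without overlap, by 3.09 ± 0.50 (log2; adjusted p = 1.4e-09) against early in the fit without the filter.

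Bak1 lies at chr17:27019810-27029009 on the minus strand (mm10, GENCODE vM21), inside Ggnbp1 (chr17:27017987-27037624, plus strand), and whether the authors' counting used strand is not given in the sources used here. Ggnbp1, which encodes a binding partner of the germ cell protein gametogenetin, rose in the same stages, from 10.3, 48.0 and 81.2 CPM early to 292, 578 and 764 late. Bak1 made up 1.43% of the tags of the pair early (1 of 70 UMIs, exact 95% interval 0.0362 to 7.70) and 1.77% late (40 of 2257, 1.27 to 2.41) in mouse 2, and 1.58% early (5 of 316, 0.516 to 3.65) and 1.32% late (151 of 11486, 1.11 to 1.54) in mouse 3. In mouse 1 it was 6.67% early (3 of 45, 1.40 to 18.3) and 1.73% late (71 of 4112, 1.35 to 2.17). The early and late intervals overlapped in 3 of 3 mice, which is no test of their difference. The annotated 3' ends lie apart, at 27019810 for Bak1 and at 27037624 for Ggnbp1. Without strand, a read inside the shared span cannot be assigned to either gene. Where the reads of the pair lie was not tested. The Bak1 values are therefore uncertain.

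**Figure D2:**
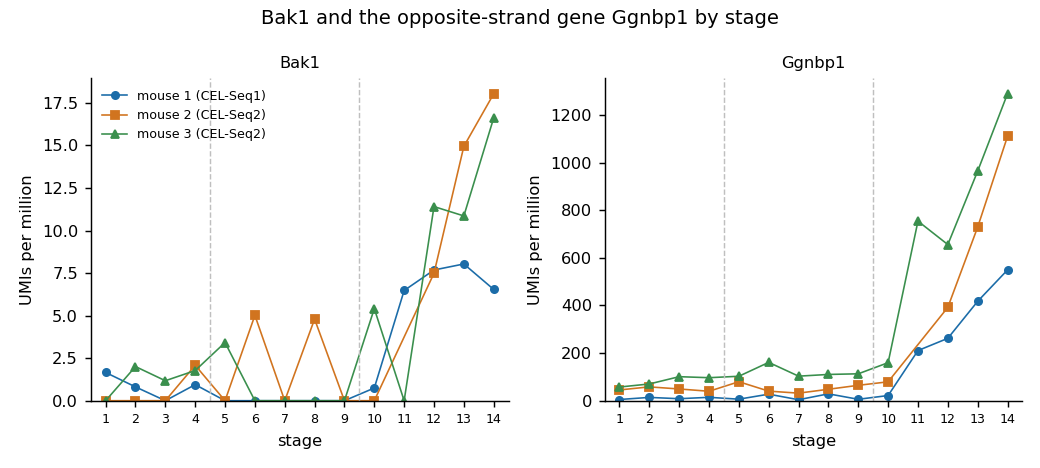
CPM of Bak1 (left) and of the gene that contains it on the other strand, Ggnbp1 (right), against stage for each mouse, on separate scales from 0. Both are low up to stage 10 and higher in stages 12 to 14.

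Bid, which is cut by caspase-8 and then activates Bax and Bak, fell with Bax. It went from 43.2, 51.1 and 59.4 CPM early through 22.3, 19.2 and 21.7 to 7.52, 7.83 and 11.3 late in mice 1, 2 and 3, with no overlap between periods. Early to late it changed by -2.59 ± 0.18 (log2; 6.03-fold; adjusted p = 4.08e-21) and early to middle by -1.74 ± 0.20 (adjusted p = 2.93e-11). The further difference from middle to late, -0.85 ± 0.29 (adjusted p = 0.00707), was lost on leaving out any 1 mouse (adjusted p = 0.136, 0.103 and 0.0973 without mice 1, 2 and 3). The lowest stage was stage 8, at 5.86 ± 3.30. The end of Bid overlaps that of Bcl2l13 on the other strand, which stood at 53.03 ± 15.2 early and 43.9 ± 2.3 late. The annotated 3' ends, at chr6:120891930 for Bid and chr6:120892842 for Bcl2l13, each lie inside the other gene. Whether tags were shared was not tested.

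Bad, which frees effectors by occupying Bcl-xL and is silenced by phosphorylation, ran in a trough and a climb. The early level was 26.6, 45.3 and 38.9 CPM in mice 1, 2 and 3, the middle level 17.6, 20.1 and 31.0, and the late level 72.8, 83.7 and 99.1. The late values lay above all others, while early and middle overlapped. Middle was below early by 0.69 ± 0.19 on the log2 scale (adjusted p = 0.00105; 0.50, adjusted p = 0.0511, without mouse 2). Late was above middle by 2.09 ± 0.16 (4.25-fold; adjusted p = 2.55e-19) and above early by 1.40 ± 0.12 (2.64-fold; adjusted p = 8.35e-17). Within the early period it went from 16.5 ± 1.5 in stage 1 to 43.4 ± 15.3 in stage 2. It was at 7.89 ± 9.66 in stage 6, 11.2 ± 2.1 in stage 7, 31.4 ± 11.3 in stage 8 and 101 ± 10 in stage 14. Stages 6 and 7 held only 9 and 8 Bad UMIs over the mice. The start of Bad overlaps that of Gpr137 on the other strand, which also rose, from 34.8 ± 16.7 early to 136 ± 42 late. The annotated 3' ends lie apart, at chr19:6951899 for Bad and chr19:6938057 for Gpr137. Whether tags were shared was not tested.

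Bbc3, the p53 target that encodes Puma, had 135 UMIs, 96 of them in mouse 1. Its level was 8.81, 3.34 and 3.76 CPM early and 3.83, 1.06 and 1.03 late in mice 1, 2 and 3: lower late in each mouse, with overlapping ranges. Late minus early was -1.33 ± 0.44 (log2; adjusted p = 0.00517), and the gene passed the filter neither without mouse 1 nor without mouse 3. Its contrast of late with middle was -0.48, with a computed SE of 3.28. That SE is larger than the SEs of late minus early (0.44) and middle minus early (0.72) allow. It is therefore not read as a measure of precision. Stage 7 held 0 of 742788 UMIs, which allows up to 4.04 CPM.

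**Figure D3:**
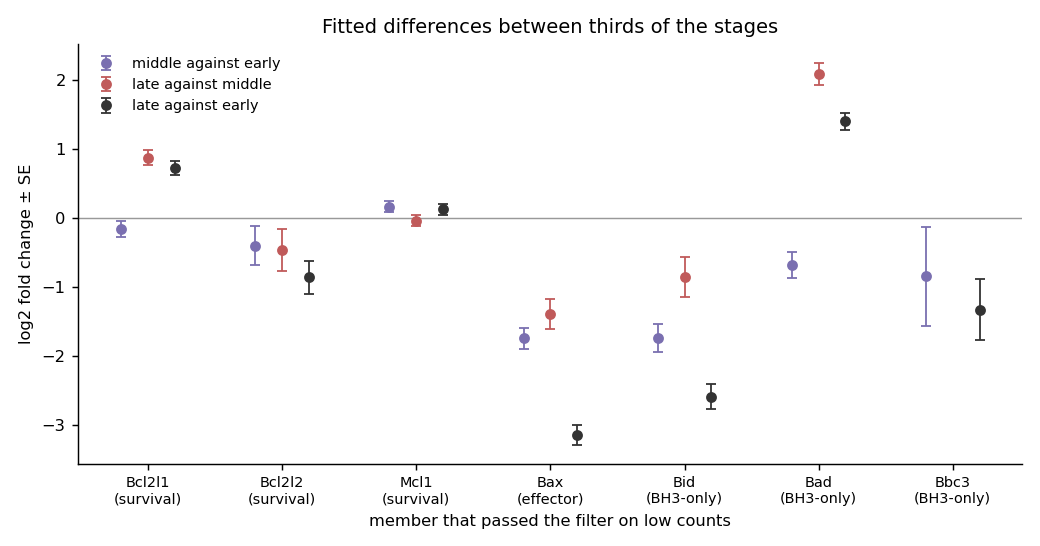
Fitted log2 fold change (vertical axis) with its SE, computed back from the test, for the 7 tested members in the 3 contrasts between periods. Bax and Bid lie below 0 in all 3, Bad is below 0 from early to middle and above 0 from middle to late, and Mcl1 stays within 0.25 of 0. The late against middle value of Bbc3 is left out for its SE.

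In the other contrasts, 3 of 7 members were lower in the middle than in the early period (Bax, Bid, Bad) and 0 higher, where the background was 39.8% lower and 27.5% higher. From middle to late 2 were higher (Bcl2l1, Bad) and 2 lower (Bax, Bid), where it was 35.0% and 36.1%. Stage 14 against stage 1 gave 2 higher and 3 lower, against 31.8% and 42.1%. With 7 genes these counts are a description.

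The steps between neighbouring stages placed few of the changes. Of 91 pairs of a member and a step, 7 passed, against 10.2% of pairs over all genes. No step of Bid was called. The falls of Bad from stage 4 to 5 (adjusted p = 0.253) and from 5 to 6 (adjusted p = 0.0689) were not called either. Bad (1.33 on the log2 scale, adjusted p = 0.00123) and Bax (0.66, adjusted p = 0.0303) were higher in stage 2 than in stage 1. At the step from stage 5 to 6, within the preleptotene-like stages, Bax fell by 1.46 (adjusted p = 0.00276) and Bcl2l1 rose by 0.81 (adjusted p = 0.0227). Bad then rose from stage 7 to 8 (1.63, adjusted p = 0.0186) and from 10 to 11 (0.91, adjusted p = 0.0291), and Bcl2l1 from 9 to 10 (0.78, adjusted p = 0.0133). Each of the 7 lost its call without at least 1 mouse. That was mouse 3 for Bad at the step from 1 to 2 (adjusted p = 0.098) and for Bcl2l1 from 5 to 6 (0.41), and mouse 2 for Bax from 5 to 6 (0.0681). Mice 1 (0.158) and 2 (0.148) mattered for Bax from 1 to 2, and mice 1 and 3 for Bad from 7 to 8 (0.201 and 0.217) and for Bcl2l1 from 9 to 10 (0.0807 and 0.128). Bad from 10 to 11 lost it without any of the 3 mice (0.337, 0.0535 and 0.153), with log2 differences of 0.94, 0.94 and 0.81. Since mouse 2 has no stage 11, leaving out mouse 1 or 3 left 1 sum there, which the fit assumes to vary like the other sums. Without the Sertoli-led wells the changes at stage 6 were -1.38 for Bax and 0.82 for Bcl2l1.

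As shares of all tags of the 9 members, those of the survival members were higher after the early period. They gave 52.0%, 57.0% and 61.2% of member UMIs in the early period of mice 1, 2 and 3, 71.9%, 76.6% and 81.1% in the middle and 67.7%, 74.5% and 74.0% in the late period. Middle and late lay above early without overlap, and the late minus early difference was 15.3 ± 2.4 percentage points (SD). The mean share was highest in stage 7, at 85.5 ± 1.4% (SD over mice). It rested there on 48, 46 and 120 member UMIs in mice 1, 2 and 3. The exact 95% intervals, which cover counting error only, were 72.2 to 93.9, 73.7 to 95.1 and 76.4 to 90.2. In mouse 3 the highest share was that of stage 8, at 86.7%. Effectors went from 22.6 ± 1.7% through 9.93 ± 2.93% to 4.84 ± 1.06%. Of the effector UMIs, Bak1 gave 1.03%, 0.55% and 1.14% early in mice 1, 2 and 3 and 39.2%, 48.8% and 58.5% late. The late effector share thus rests in part on the uncertain Bak1 values. BH3-only members went from 20.7 ± 3.6% through 13.6 ± 2.8% to 23.1 ± 3.2%. The summed level of all 9 members was 463 ± 127 CPM early, 370 ± 79 middle and 423 ± 97 late.

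Within the BH3-only group the leading gene changed. Bid gave 53.1%, 51.0% and 57.2% of the BH3-only UMIs early and 8.96%, 7.21% and 7.84% late in mice 1, 2 and 3. Bad gave 35.2%, 45.5% and 39.2% early and 86.4%, 91.5% and 91.6% late. These are shares of tags and say nothing of the proteins, of which Bad is regulated by phosphorylation. No p is given for a share over chosen members.

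**Figure D4:**
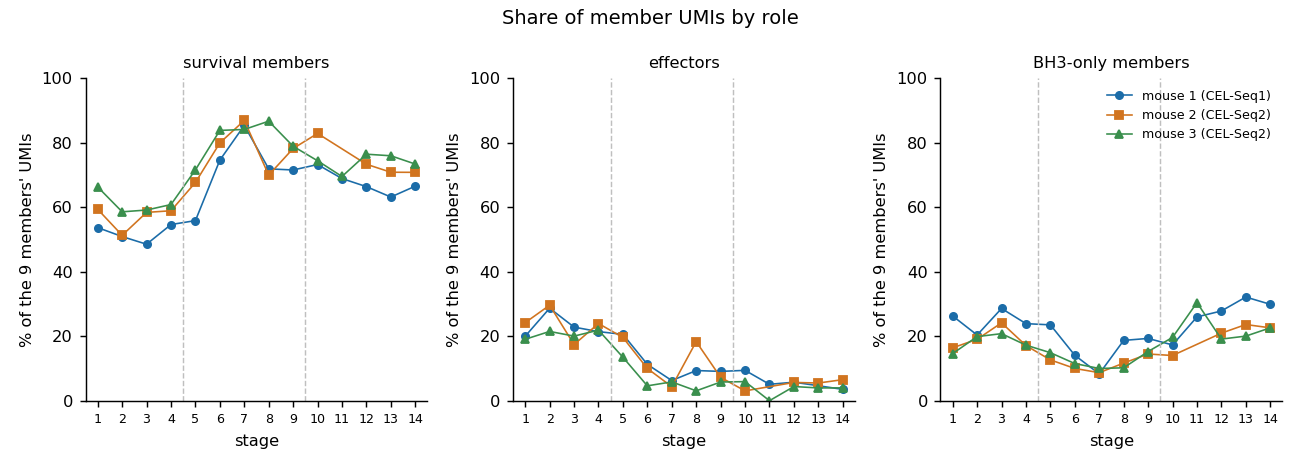
Share of the 9 members' UMIs (vertical axes, 0 to 100%) held by survival members, effectors and BH3-only members against stage for each mouse. The survival share climbs between stages 5 and 7 in all 3 mice, the effector share drops over the same stages, and the mean BH3-only share is lowest at stage 7.

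The scale of these values matters, because wells differed in RNA. UMIs per ERCC spike-in UMI, a proxy of RNA per well, averaged 143, 43.5 and 33.0 in mice 1, 2 and 3 in the early period, 51.5, 18.0 and 13.1 in the middle and 273, 103 and 82.1 in the late period. Per 1000 ERCC UMIs, Bax went from 10.9, 5.25 and 3.76 early through 1.81, 0.90 and 0.38 to 2.57, 1.33 and 0.72 late, so that it no longer fell from middle to late (0.77 on the log2 scale, adjusted p = 0.00388) but stayed below its early level (-2.24, adjusted p = 4.69e-23). Mcl1 went from 16.1, 7.27 and 5.50 through 7.04, 3.17 and 2.71 to 35.6, 16.8 and 12.3, above early by 0.99 (adjusted p = 3.93e-10). Bcl2l1 per 1000 ERCC UMIs was nearly equal among mice, at 5.27, 4.27 and 4.89 early, 1.72, 1.93 and 1.64 middle and 20.6, 16.5 and 18.5 late.

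On this scale the 7 members were all lower in the middle than in the early period and all higher in the late than in the middle period. The same held of most genes: the median of all genes was -1.45 and 2.03 in these contrasts, and 3.31% and 93.3% of the calls were to higher values, against 40.9% and 49.2% on the CPM scale. Late minus early, the median of all genes was 0.60 and 65.2% of calls were higher, against 42.5%. Bax (-2.24) and Bid (-1.69) stayed lower and Bad (2.27) and Bcl2l1 (1.59) higher in that contrast on both scales, whereas Bcl2l2 stood at 0.03 (adjusted p = 0.91) and Bbc3 at -0.44 (adjusted p = 0.35).

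**Figure D5:**
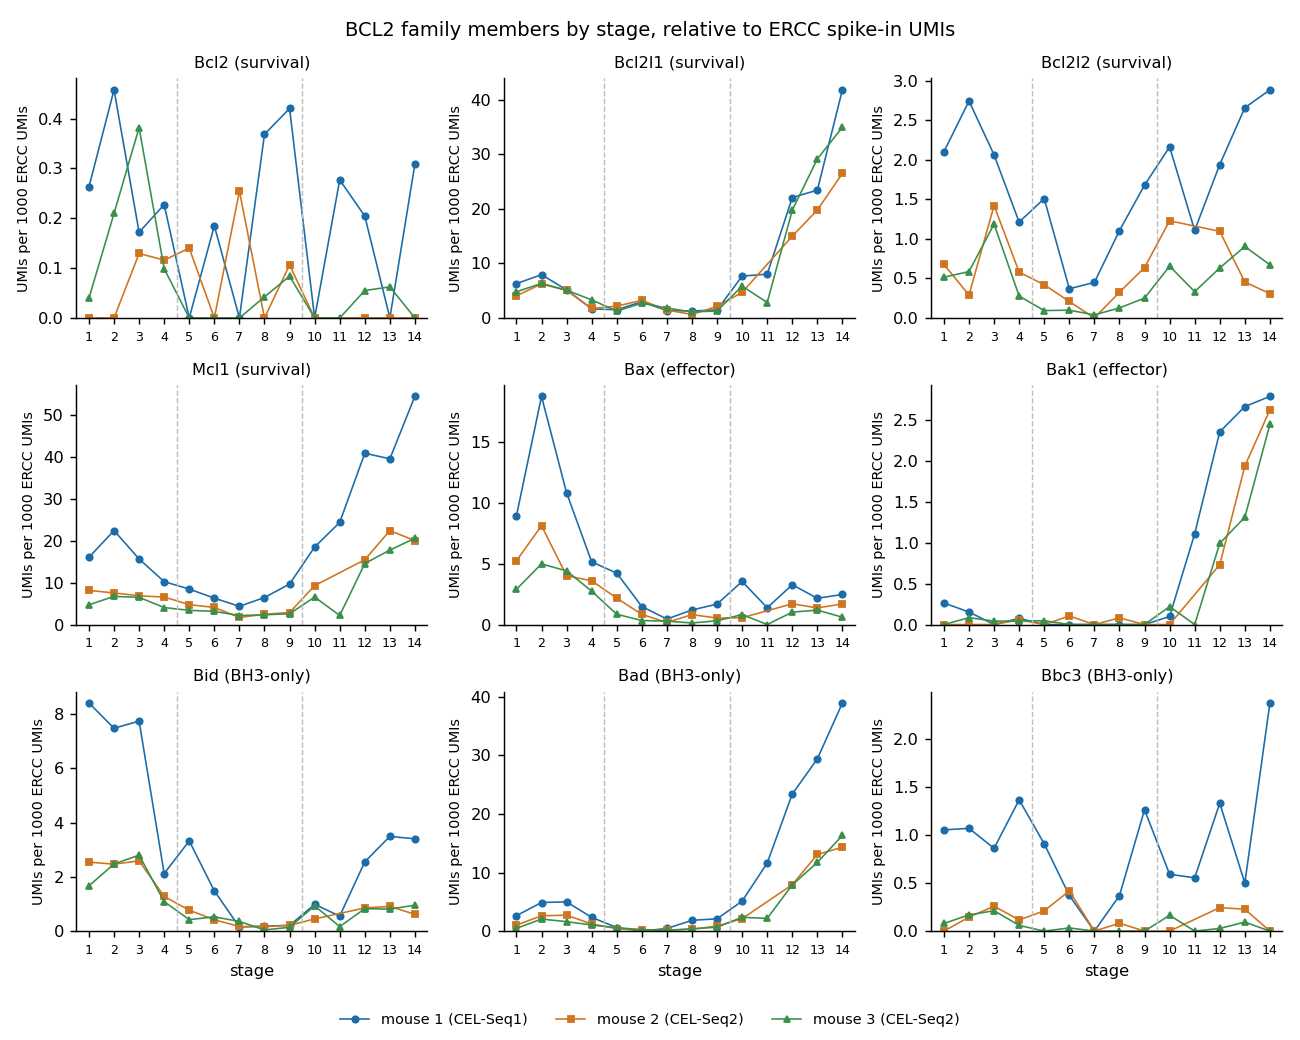
Member UMIs per 1000 ERCC spike-in UMIs (vertical axes, separate scales from 0) against stage for each mouse. The mean of each of the 7 tested members is lower in the middle than in the early period, and so is each mouse's value except for Bbc3 in mouse 2 (0.13 early, 0.142 middle). Bcl2l1, Mcl1 and Bad end above their early values, and Bax and Bid do not regain theirs.

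The sequences before the starts of Bax and Bid, which fell together, and of Bad, which climbed, are shown to let a reader compare members of opposite course. They are the 250 bases before the RefSeq start (GRCm38.p6, the build mm10), read 5′ to 3′ on the gene's strand, with CpG pairs in capitals.
Bax, chr7:45466899-45467148, minus strand: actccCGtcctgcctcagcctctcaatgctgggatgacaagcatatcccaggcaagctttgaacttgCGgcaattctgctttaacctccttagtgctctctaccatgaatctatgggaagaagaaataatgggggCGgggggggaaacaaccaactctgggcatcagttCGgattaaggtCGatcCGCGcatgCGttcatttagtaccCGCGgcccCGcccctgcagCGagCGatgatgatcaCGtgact
Bid, chr6:120916825-120917074, minus strand: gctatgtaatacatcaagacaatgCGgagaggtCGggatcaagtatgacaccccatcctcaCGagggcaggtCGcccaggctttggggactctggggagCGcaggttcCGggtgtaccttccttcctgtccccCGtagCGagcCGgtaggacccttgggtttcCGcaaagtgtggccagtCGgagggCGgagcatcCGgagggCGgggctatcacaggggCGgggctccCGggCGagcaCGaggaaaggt
Bad, chr19:6941611-6941860, plus strand: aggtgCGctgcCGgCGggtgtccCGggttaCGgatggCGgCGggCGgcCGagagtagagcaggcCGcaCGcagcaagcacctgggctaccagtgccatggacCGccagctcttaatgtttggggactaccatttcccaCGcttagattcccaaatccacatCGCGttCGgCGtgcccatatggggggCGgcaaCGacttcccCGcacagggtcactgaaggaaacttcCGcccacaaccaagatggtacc
All 9 members matched the table, with 14 starts among them. The Bax window had 14 CpG pairs and 54.0% GC, the Bid window 18 and 63.6%, and the Bad window shown 21 and 62.8%. The medians were 6 and 52.4% over 32851 windows. Bad has another start, whose window (chr19:6942312-6942561) had 18 CpG pairs and 64.8% GC. The Bad window shown lies within Gpr137. Searched on both strands, the STRA8 motif CNCCTCAG was in 6.42% of all windows, the MYB motif AACNGTT in 3.8% and the CRE motif TGACGTCA in 1.55%, and 0 of the 14 member windows held any of them. That says only that these letters are not in these windows.

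Beyond the members, 45 of 64 listed apoptosis genes could be tested. From early to late 31 were lower, 12 higher and 2 not called, beside 48.2% and 35.6% over all genes. Of the 43 called, 7 turned sign under ERCC scaling (Bnip3l, Casp9, Dffa, Fadd, Ripk1, Bag1 and Fbxw7), none of them among the genes named next.

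Of the remaining BCL2 family 6 of 9 fell and 2 rose (median -1.49). Bik, a BH3-only gene, went from 30.8 ± 7.6 to 0.39 ± 0.28 CPM (-6.15 on the log2 scale, adjusted p = 2.69e-23). Bok, an effector-like gene, went from 11.3 ± 4.9 to 0 of 26313791 late UMIs. Its mean early level was 99.5-fold above a floor of 3 counts over the 3 mice. That ratio leaves out the spread of the early level and is no bound. The fitted difference, with 0 late UMIs, was -6.04 on the log2 scale (adjusted p = 2.26e-13). Bcl2l12 rose from 35.9 ± 6.7 to 127 ± 13 (1.84, adjusted p = 4.39e-22) and Pmaip1, which encodes the Mcl-1 binder Noxa, from 13.0 ± 2.4 to 23.0 ± 4.5 (0.94, adjusted p = 3.44e-05).

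Downstream of the mitochondrion, 8 of 11 caspase and apoptosome genes fell and 3 rose (median -1.65). Aifm1, an X-linked gene for the mitochondrial apoptosis-inducing factor, fell from 86.2 ± 8.8 to 1.57 ± 0.38 (-5.72 on the log2 scale, adjusted p = 3.73e-36). Cyct, the testis form of cytochrome c, rose from 74.7 ± 20.4 to 514 ± 14 (2.93, adjusted p = 1.12e-26), and Diablo, whose product blocks inhibitors of apoptosis, from 210 ± 71 to 875 ± 152 (2.19). Among the inhibitors of apoptosis 2 of 4 fell and 1 rose (median -0.55): the X-linked Xiap went from 43.0 ± 4.9 to 4.47 ± 1.11, Birc6 from 146 ± 24 to 54.2 ± 11.9 and Birc2 from 60.6 ± 14.1 to 158 ± 3.

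All 4 tested genes of the death receptor pathway were lower late (median -1.01). Cflar, which encodes a decoy of caspase-8, differed far more between mice than between periods. It stood at 2718 CPM in mouse 1 and 14.8 and 10.3 in mice 2 and 3 early, and at 492, 4.96 and 2.68 late. Tnfrsf10b, a death receptor, went from 50.8, 29.9 and 36.5 to 36.2, 12.3 and 6.23.

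Of 9 genes of the p53 and checkpoint list 6 fell and 3 rose (median -1.53). The kinase gene Atm fell from 191 ± 7 to 22.9 ± 3.3 (-3.01) and Chek1 from 79.6 ± 1.6 to 12.1 ± 3.5 (-2.57), while Atr rose from 210 ± 30 to 808 ± 53 (2.02) and Mdm2, the ligase of p53, from 157 ± 31 to 336 ± 38 (1.21). Among outer membrane partners and enzymes that turn over members, 5 of 8 fell and 3 rose (median -0.49). The X-linked Huwe1, a ligase of Mcl-1, went from 528 ± 31 to 10.8 ± 4.1 and the X-linked Usp9x, which removes ubiquitin from Mcl-1, from 139 ± 14 to 4.64 ± 2.31. The channel genes Vdac2, whose product binds Bak, and Vdac3 rose from 221 ± 57 to 666 ± 79 and from 235 ± 63 to 453 ± 37.

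As a description, the genes most like each member over the 14 stages were found by Pearson's r of mean log2(CPM + 1). For Bax they were Pcyox1 (0.98), Srebf1 (0.97) and Hmgb3 (0.97), for Bid Arvcf (0.99), Dmrt3 (0.98) and Mical3 (0.98), and for Bad Actg1 (0.95), Dcaf7 (0.95) and 1700066M21Rik (0.95). For Bcl2l1 they were Pla2g6 (0.92), 1700030K09Rik (0.92) and 4933416M07Rik (0.90), for Bcl2l2 Rps9 (0.93) and Tle6 (0.91), for Mcl1 Klc1 (0.86), Emc1 (0.85) and Gnai3 (0.84), and for Bbc3 Dab2ip (0.94), 9030624G23Rik (0.91) and Samd14 (0.90). Between members, Bax and Bid had the highest r (0.88) and Bcl2 and Bcl2l1 the lowest (-0.77). The points share libraries and depth.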

How the data were processed

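SORT-Seq counts of 1920 wells from 3 mice were read with Python 3.11.15 and pandas 2.3.3. The authors deposited UMI counts (used as the main values), read counts and a transcripts table of estimated counts, rounded here. Per the submitters' processing notes BWA 0.7.10 and mm10 were used, and annotation, counting tool and strand use are not given in the sources used here. The transcripts columns of mouse 1 stood in another order and were matched by profile (545 of 545 kept wells mutual best matches, lowest correlation 0.972). All columns were mapped, and mouse 1's 8 libraries are pooled in its column names.

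Wells with at least 1000 UMIs were aligned over mice (Seurat 5.3.0, 1500 variable genes of odd-numbered autosomes without members or listed genes) and clustered (scanpy 1.11.5, Leiden resolution 1.0). A stage needed at least 10 wells in at least 2 mice and a median depth of at least 1/3 of that of all kept wells. Each well holds 1 sorted cell, so doublets were not removed. Clusters were ordered by diffusion pseudotime. Sums per mouse and stage were tested with edgeR 4.0.16 (R 4.3.3; TMM, filterByExpr, quasi-likelihood, stage and mouse as terms), adjusted over all genes within each contrast. Named genes were the 9 members, of each list the 2 largest rises and the 2 largest falls called from early to late, and 3 like genes per member, of which 2 genes are not reported here. The members and lists were chosen with earlier results of these data known. On simulated data (late against early, 11597 genes) the test recovered 79.17% of 0.5-fold, 88.89% of 2-fold, 97.96% of 0.25-fold and 100% of 4-fold changes. It called 0.0351% of unchanged genes. The changed genes numbered 48, 45, 49 and 58 in that order, whereas 83.8% of genes were called in the real contrast. These rates describe the simulated data, and whether they carry over to the real data was not tested. Stages of a mouse pair by animal (lowest correlation of deviations 0.221 in mouse 2, 0.316 in mouse 3 and 0.404 in mouse 1). Alternatives are listed at the end, and DESeq2 1.42.0 was one of them.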

Additional observations from a re-analysis of the deposited data

Results flagged for a closer look

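The 472 wells under 1000 UMIs, which no comparison used and which have no control wells to set beside them, held 71 member UMIs of the 17311 in all wells. They gave 179485 UMIs over all genes, so that the summed level of the members was 396 CPM, beside 463 ± 127 early, 370 ± 79 middle and 423 ± 97 late in the stages.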

How the results depend on the processing

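Of 249 values of single members that passed the test and were recomputed under an alternative, 229 kept their direction and call, 16 lost the call and 4 changed sign. ERCC scaling gave 3 of the 4 changes of sign, Bax at 0.77 and Bid at 1.32 (late minus middle) and Bcl2l2 at 0.034 (late minus early). With low-depth clusters kept, Bcl2l2 was 0.79. Of values that had not passed, ERCC scaling turned Bbc3 (1.30), Bcl2l2 (1.69) and Mcl1 (2.13) from middle to late and Mcl1 (-1.14) from early to middle. Mcl1, near 0 in each contrast, also turned late minus early with DESeq2 (-0.017) and RLE factors (-0.019), early to middle with reads (-0.059), and middle to late at resolution 0.6 (0.15), with reads (0.26), transcripts (0.082), low-depth clusters (0.052), no filter (0.064), even-autosome staging (0.093), sums of at least 20 cells (0.10), wells of at least 2000 UMIs (0.033) and, both added after seeing the data, without the Sertoli-led wells (0.031) and without stage 11 (0.19). Bcl2l1 turned from early to middle at resolution 0.6 (0.043) and with low-depth clusters (0.21), and Bcl2l2 from middle to late at resolution 0.6 (0.072), with low-depth clusters (1.23) and even-autosome staging (0.12). The cause of these changes was not tested.

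Without the replicate block (the mouse), 4 of 7 members passed over all stages, 1 instead of 2 was higher late against early, late against middle and in stage 14 against 1, and 1 step call was made instead of 7. Late against early, 4 were higher with sums of at least 20 cells, and 2 instead of 4 lower with ERCC scaling and with low-depth clusters kept. Middle against early, 1 instead of 0 was higher with wells of at least 2000 UMIs, without the Sertoli-led wells and without stage 11, and 7 instead of 3 were lower with ERCC scaling. Late against middle, 7 were higher and 0 lower with ERCC scaling, 4 higher with reads, and 1 instead of 2 lower with even-autosome staging, resolution 0.6, low-depth clusters kept and without stage 11. Stage 14 against 1 had 4 higher without the filter. Step calls numbered 4 without TMM factors, 19 with ERCC scaling, 3 without the gate-sorted library and 12 at resolution 0.6. These counts are not all over the same 7 members. Bcl2 and Bak1, whose values are uncertain, were also tested with sums of at least 20 cells, with reads and without the filter. Bbc3 was not tested without mouse 1 or without mouse 3.

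Leaving out 1 mouse at a time, the difference from early to middle ranged from -0.25 to 0.058 for Bcl2l1, and that from middle to late from -0.83 to 0.29 for Bcl2l2 and from -0.063 to 0.11 for Mcl1. For Bax, the difference from early to late ranged from -4.29 to -2.90 and that from middle to late from -2.42 to -1.26. The number lower late against early ranged from 2 to 4, higher middle against early from 0 to 1, lower late against middle at 1, and step calls from 2 to 4. The late minus early survival share was 10.8 percentage points with reads and 12.8 with low-depth clusters kept, against 15.3. The counts of other apoptosis genes stayed within 1.5 times under every alternative run. Low counts limit Bak1, Bcl2 and Bbc3.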

Other observations

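Reads per UMI of Bcl2l1 differed between mouse 1 and the other mice, and protocol and animal cannot be told apart. It had 1.59 reads per UMI in mouse 1 (1688 reads, 1065 UMIs) against 6.01 in mouse 2 and 7.13 in mouse 3, while all genes together had 3.55, 4.21 and 3.55. Mcl1 had 4.87, 5.52 and 4.90, and Bax 1.998, 2.68 and 1.75. Bcl2l1 CPM was also lower in mouse 1 than in mice 2 and 3 in each period.

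A further 4 clusters, 201 wells in all, were left out of the stages. In 88 wells of low depth led by Plekhg3 and Spry2, Bcl2l1 gave 41 UMIs (221 CPM), Mcl1 26 (140) and Bax 9 (48.5). In 64 wells led by Vmn2r55, 55 of them from mouse 3, Bcl2l1 gave 26 UMIs (161 CPM), Mcl1 14 (86.7) and Bax 1 (6.20). In 36 wells led by Gm16157, Mcl1 gave 24 UMIs (222 CPM), Bcl2l1 8 (73.9) and Bid 5 (46.2). In 13 wells led by the protamine genes Prm2 and Prm1, which package DNA in spermatids, Mcl1 gave 38 UMIs (166 CPM), Bcl2l1 18 (78.7), Bad 11 (48.1) and Bax 3 (13.1).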
